A study of Mus musculus with 6 samples.

Results

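The genes of the constitutive proteasome were compared between transplanted WT and Hemgn-/- donor cells. Members were the protein-coding genes of the deposited table whose mouse symbol starts with Psma, Psmb, Psmc, Psmd or Psme and a number, without the immunoproteasome subunits Psmb8, Psmb9 and Psmb10. This rule took 41 of 24965 genes and used no measured value. They comprise 14 core genes (7 of the alpha ring and 7 of the beta ring), 9 genes of the base, 8 of the lid, 3 base assembly chaperones and 5 activator genes. The remaining members are Psma8, the testis form of an alpha subunit, and Psmc3ip, a meiotic recombination factor that shares the letters but is no part of the proteasome.

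The series holds 3 WT and 3 Hemgn-/- libraries of RNA from donor bone marrow cells. Hemgn (hemogen) encodes a nuclear protein of blood-forming cells, and the study asked how its loss changes hematopoietic stem and progenitor cells (HSPCs) under transplantation stress. Donors were CD45.2+ mice on the C57BL/6 background, either WT or with Hemgn disrupted in the whole body by zinc finger nucleases. The methods give an age of 8 to 10 weeks and both sexes for the mice used. The paper describes the edit as a short loss of coding bases with a premature stop codon, and found no HEMGN protein. Because the mutation is not limited to HSPCs, donor cells of every type carried it. In both groups, bone marrow was injected into CD45.1+ recipients that had received 9 Gy of radiation in a split dose, and donor cells were sorted 6 h later, so the cells of each library had passed through irradiated hosts, and no untransplanted control was analysed here. The design text and the methods describe the sorted cells as Lin-Sca-1+c-Kit+, whereas the sample labels leave out c-Kit. The labels call the libraries replicates and do not say how many mice stood behind each, so p-values measure the spread between these libraries.

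The proteasome is the protease that degrades ubiquitin-tagged proteins. Its barrel-shaped core has outer rings of alpha subunits, which gate the channel, and inner rings of beta subunits, of which Psmb5, Psmb6 and Psmb7 carry the catalytic sites. The 19S cap is made of a base, whose Psmc ATPases unfold the substrate, and a lid, whose subunit Psmd14 removes the ubiquitin chain. Psme1 and Psme2 form the PA28 activator, a ring that opens the core without a cap, and interferon-gamma induces both together with the immunoproteasome subunits that replace the 3 catalytic subunits. The constitutive genes are expressed in nearly every cell.

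Expression was given in FPKM, which divides the fragments of a gene by a length and by the size of the library. The length that recovered whole fragments was that of all annotated exons of the gene together, so levels between genes depend on that length. Libraries held 23668021 to 28897340 fragments. Hemgn itself was at 5.64, 2.96 and 4.68 FPKM in WT and at 0.75, 0.91 and 1.60 FPKM in Hemgn-/- libraries, without overlap. The sorted cells carried HSPC genes at low to modest levels. Kit was at 5.50 to 7.24 FPKM over the 6 libraries and Ly6a, which encodes Sca-1, at 8.27 to 17.3 FPKM. Cd34 was at 7.23 to 11.9 FPKM and Gata2 at 4.59 to 9.43 FPKM. Mecom (0.0029 to 0.42 FPKM), Hlf (0.67 to 1.08), Flt3 (0.50 to 1.41), Meis1 (0.86 to 1.73) and Procr (1.00 to 1.75) were low. Genes of lineages that the gate should remove were high, with the neutrophil granule gene Ngp at 26488 to 46692 FPKM and the B cell gene Cd79b at 479 to 632 FPKM. The summed level of 9 erythroid genes was 456 to 544 FPKM in WT and 28.1 to 43.0 FPKM in Hemgn-/-, that of 10 granulocyte genes 71955 to 77647 and 46002 to 51280 FPKM, that of 6 B cell genes 985 to 1028 and 1129 to 1311 FPKM, and that of 10 HSPC genes 120 to 125 and 147 to 155 FPKM. Most of the HSPC sum came from Ptprc, a gene of all leukocytes, at 87.1 to 88.9 FPKM in WT and 102 to 113 FPKM in Hemgn-/-, and the other 9 genes summed to 33.2 to 36.8 and 40.0 to 44.9 FPKM, with Kit, Hlf, Gata2 and Procr having estimates below 0. Of these lists, the erythroid list alone held a gene at 0 in any library. Most of the erythroid sum in WT came from the globin genes Hba-a1 and Hbb-bs. Of 8 erythroid genes tested, 7 had estimates below 0, but Klf1 (-0.10) and Epor (0.06) had groups that overlapped. Cd79a and Cd79b made up most of the B cell sum, and 2 of the 6 genes, Ebf1 (-0.04) and Vpreb1 (-0.39), had estimates below 0. All 10 granulocyte genes had estimates below 0. The 10 genes of a G2/M phase list summed to 215 to 221 FPKM in WT and 127 to 132 FPKM in Hemgn-/-. Their part in the values of the proteasome genes was not tested, and fewer cells of a type and less RNA per cell cannot be told apart in such bulk samples.

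None of the 41 members differed between the groups at an adjusted p under 0.05 (limma on log2(FPKM + 1), Benjamini-Hochberg over 13739 genes), against 6.46% of all genes tested, with 4.37% called higher and 2.09% called lower. At an unadjusted p under 0.05 the count was 4 members, against 21.4% of all genes, and voom on recovered fragments called 0 members at an adjusted p under 0.05, against 7.76% of the genes it tested, and gave 1 member, Psmd2, at an unadjusted p under 0.05. At the thresholds of the study, p under 0.05 and a change of at least 1.5-fold, no member passed, against 6.83% of all genes. When every library was rescaled to the same FPKM total, 2 members, Psmd2 and Psme2b, were called, against 9.37% of all genes tested under that setting. Since a p above the threshold does not show equal levels, the width of the intervals matters. In the main fit, the 95% interval of the fold change lay within 1.5-fold either way for each of the 31 core, base and lid genes. The same held for 49.2% of all genes tested, and for 69.9% of the 6315 genes whose mean level fell in the same range, 4.44 to 110 FPKM. Of the genes in that range, 9.77% were called and 29.1% had an unadjusted p under 0.05, against 0 and 2 of the 31. Such intervals were not counted under the alternative settings, where the log2 fold change of Psma6 reached -0.41, against -0.28 in the main fit.

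**Figure D1:**
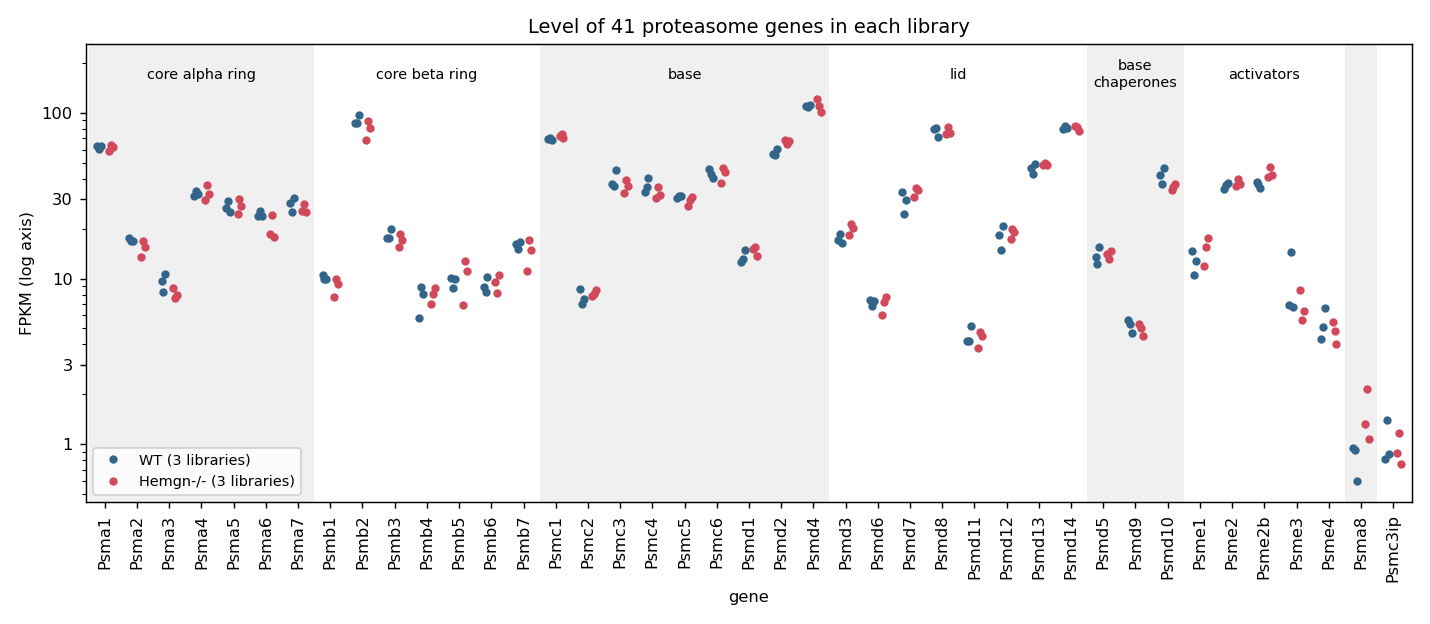
FPKM of the 41 members in each library on a log axis, with 3 WT libraries (blue) and 3 Hemgn-/- libraries (red) per gene, and shading that separates the subcomplexes (the last 2 columns are Psma8 and Psmc3ip). Values per library run from 0.60 FPKM for Psma8 to 122 FPKM for Psmd4, and the red and blue points of most genes overlap.

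The proteasome genes had unequal FPKM values, although their products are built into one particle. Averaged over the WT libraries, the highest were Psmd4, a ubiquitin receptor of the base, at 110 ± 2.03 FPKM (SD, n = 3) and the beta subunit Psmb2 at 90.1 ± 6.04 FPKM. The lid genes Psmd14 and Psmd8 followed at 81.7 ± 1.74 and 77.3 ± 5.25 FPKM, and these 2 did not differ beyond their spread. At the low end stood the lid gene Psmd11 at 4.51 ± 0.56 FPKM, Psmd6 at 7.18 ± 0.27 FPKM, Psmb4 at 7.59 ± 1.61 FPKM and the ATPase gene Psmc2 at 7.74 ± 0.88 FPKM, of which the last 3 overlapped. The genes of the catalytic subunits had low FPKM within the core, at 9.58 ± 0.68 for Psmb5, 9.14 ± 0.95 for Psmb6 and 15.9 ± 0.72 for Psmb7. Counts of fragments behind a core, base or lid gene ranged from 171 to 9368 per library. The order by FPKM also depends on the exon length, which ran from 837 to 8382 bases over the members. Psmc2, with 5031 exon bases, had 899 to 1236 fragments per library. Psmc5 had 1003 to 1250 with 1394 bases, and so a higher level of 31.1 FPKM in WT. Subunit genes varied little between replicates: the median residual SD was 0.12 on the log2 scale for the 31 core, base and lid genes, 0.18 for all genes tested and 0.14 for genes in the same range of levels.

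**Figure D2:**
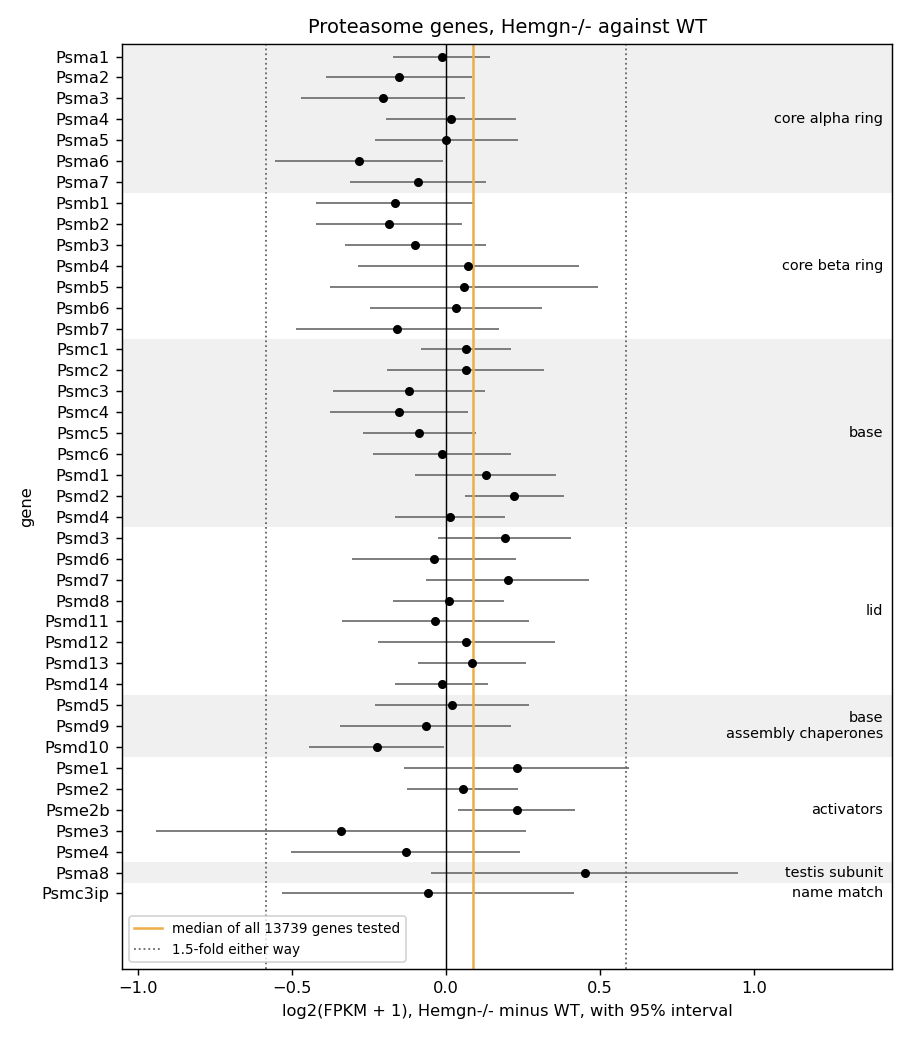
Difference in log2(FPKM + 1), Hemgn-/- minus WT, for each member with its 95% interval from limma, grouped by subcomplex, with the median of all genes tested (yellow line) and a change of 1.5-fold either way (dotted lines). The intervals of all 31 core, base and lid genes stay between the dotted lines, and no core gene has its estimate above the yellow line.

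The core genes gave a median log2 fold change of -0.10, against 0.09 for all genes tested. Of the 14, 5 had an estimate above 0 and 9 below, against 63.0% of all genes tested above 0, and none was called. Each of the 14 estimates lay below the median of all genes. The choice of scaling moved both numbers together: under median-ratio scaling the core median was -0.19 and under an equal FPKM total -0.01, and its distance to the median of all genes ran from -0.24 to -0.11 over all settings. Hemgn-/- replicate 1 held the lowest value of 9 of the 14 core genes, and without it the core median was -0.02.

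In the alpha ring the estimates ran from -0.28 to 0.02, with 2 genes above 0 and 5 below. Psma6 had the lowest estimate and was at 23.8, 25.6 and 23.9 FPKM in WT and 18.6, 24.1 and 17.7 FPKM in Hemgn-/- libraries. Hemgn-/- replicates 1 and 3 lay under every WT library, while replicate 2 fell inside the WT range. Its log2 fold change was -0.28 (SE 0.12, 95% interval -0.55 to -0.01, adjusted p = 0.22 in limma), and without Hemgn-/- replicate 2 it was -0.41 with an adjusted p of 0.064. Psma4, with the highest estimate of the ring, was at 31.7, 33.5 and 32.2 FPKM in WT and 29.8, 36.7 and 32.4 FPKM in Hemgn-/-. The Hemgn-/- values of Psma4 enclosed those of WT, and its log2 fold change of 0.02 had an interval of -0.19 to 0.23.

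In the beta ring the range was -0.18 to 0.07, with 3 genes above 0 and 4 below. The catalytic genes come first. Psmb5, the chymotrypsin-like subunit, was at 10.0, 8.79 and 9.90 FPKM in WT and at 6.95, 12.8 and 11.2 FPKM in Hemgn-/- libraries. Hemgn-/- replicate 1 was the lowest of the 6 libraries and the other two were the highest, so the interval was wide, -0.38 to 0.49 around a log2 fold change of 0.06. Psmb6, the caspase-like subunit, was at 8.87, 8.35 and 10.2 FPKM in WT and at 9.50, 8.20 and 10.4 FPKM in Hemgn-/-. Its groups overlapped in full, with a log2 fold change of 0.03 and an interval of -0.25 to 0.31. Psmb7, the trypsin-like subunit, was at 16.2, 15.1 and 16.5 FPKM in WT and at 11.1, 17.1 and 15.0 FPKM in Hemgn-/-. Again Hemgn-/- replicate 1 was the lowest library, and the log2 fold change of -0.16 (interval -0.49 to 0.17) became 0.0060 without it. None of the 3 catalytic genes was called under any setting.

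The lowest and highest estimates of the beta ring belonged to structural subunits. Psmb2 was at 86.7, 86.4 and 97.0 FPKM in WT and at 68.2, 88.8 and 81.4 FPKM in Hemgn-/-. Hemgn-/- replicate 2 lay within the WT range and the other two below it, with a log2 fold change of -0.18 (interval -0.42 to 0.05, adjusted p = 0.35 in limma). Psmb4 was at 5.80, 8.91 and 8.06 FPKM in WT and at 6.99, 8.11 and 8.80 FPKM in Hemgn-/-. The WT libraries of Psmb4 enclosed all Hemgn-/- libraries, and the interval was -0.29 to 0.43. Psmb1, named here because its groups did not overlap, was at 10.4, 9.96 and 10.0 FPKM in WT and at 7.74, 9.92 and 9.29 FPKM in Hemgn-/-. The gap between the groups was small next to the spread in Hemgn-/-, and the log2 fold change was -0.16 (interval -0.42 to 0.09).

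The base genes had a median log2 fold change of 0.01, which became -0.09 under median-ratio scaling and 0.10 under an equal FPKM total. Of the 6 ATPase genes, 2 had an estimate above 0 and 4 below, with a range of -0.15 to 0.07. Of the 3 other base genes, which encode the scaffolds Psmd1 and Psmd2 and the receptor Psmd4, all estimates were above 0, at 0.13, 0.22 and 0.01. Psmd2 (chr16:20651652-20663414 in GRCm38, plus strand) was at 56.4, 55.6 and 60.6 FPKM in WT and at 68.9, 65.2 and 67.8 FPKM in Hemgn-/- libraries. Every Hemgn-/- library was above every WT library. The log2 fold change was 0.22 (SE 0.07, 95% interval 0.06 to 0.38), with an unadjusted p of 0.012 and an adjusted p of 0.11 in limma. Over the alternatives its adjusted p ran from 0.036 to 0.41, and the equal FPKM total was the setting that called it. Psmc4, with the lowest estimate of the base, was at 33.1, 35.7 and 40.4 FPKM in WT and at 30.7, 35.4 and 31.8 FPKM in Hemgn-/-. Of its Hemgn-/- libraries 2 were under the WT range and the other was inside, with an interval of -0.38 to 0.07 around -0.15. The ATPase gene Psmc1 also had groups that did not overlap, at 68.5 to 70.1 FPKM in WT and 70.9 to 74.0 FPKM in Hemgn-/-. That separation of Psmc1 was narrow, with a log2 fold change of 0.06 that was -0.04 at its lowest over the alternatives.

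In the lid the median log2 fold change was 0.04, and it was -0.06 under median-ratio scaling, -0.03 under quantile normalization and 0.13 under an equal FPKM total. Of the 8 lid genes, 5 had an estimate above 0, 3 below, and the range was -0.04 to 0.20. Psmd14, the deubiquitinase, was at 80.0, 83.5 and 81.5 FPKM in WT and at 83.2, 82.5 and 77.1 FPKM in Hemgn-/-. These 6 values lay close together, and the interval of -0.17 to 0.14 was among the narrowest of the members. Psmd7, the inactive partner that Psmd14 pairs with, was at 33.2, 24.5 and 29.9 FPKM in WT and at 31.2, 35.2 and 34.0 FPKM in Hemgn-/-. WT replicate 2 was the lowest library and the groups overlapped, with a log2 fold change of 0.20 (interval -0.06 to 0.47, adjusted p = 0.37 in limma). Psmd6, with the lowest estimate of the lid, was at 7.38, 6.87 and 7.29 FPKM in WT and at 6.04, 7.23 and 7.72 FPKM in Hemgn-/-. Its Hemgn-/- values spread to both sides of WT, and the interval was -0.30 to 0.23.

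**Figure D3:**
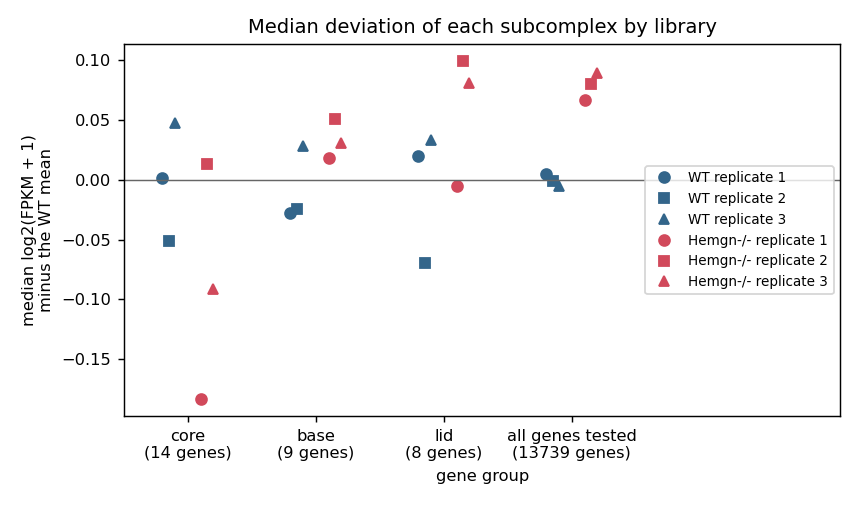
Median over the genes of a group of log2(FPKM + 1) minus the WT mean, for each library (blue, WT; red, Hemgn-/-; the marker shape gives the replicate number). The core median of Hemgn-/- replicate 1 lies lowest at -0.18, while over all genes tested the 3 Hemgn-/- libraries lie at 0.07, 0.08 and 0.09.

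Library by library, the subcomplexes moved little in FPKM without further scaling. Relative to the WT mean, the core median was 0.0016, -0.05 and 0.05 in WT replicates 1 to 3 and -0.18, 0.01 and -0.09 in the Hemgn-/- replicates. The base median ranged from -0.03 to 0.03 in WT and from 0.02 to 0.05 in Hemgn-/-. The lid median ranged from -0.07 to 0.03 in WT and from -0.01 to 0.10 in Hemgn-/-. Thus, on this scale, the groups overlapped in each of the 3 subcomplexes, while over all genes tested every Hemgn-/- library lay above every WT library. Such medians per library were not computed under other scalings. Under median-ratio scaling the median log2 fold change over all genes was 0.0068. There, 0 of the 14 core, 2 of the 9 base and 2 of the 8 lid genes had an estimate above 0. Over the 14 core genes the summed level was 354 to 374 FPKM in WT and 306 to 371 FPKM in Hemgn-/-. The 9 base genes summed to 399 to 421 and 406 to 423 FPKM, and the 8 lid genes to 276 to 286 and 283 to 303 FPKM.

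Base assembly chaperones hold ATPase pairs before the cap is joined and are not part of the finished particle. Psmd10, also known as gankyrin (chrX:140948429-140956728 in GRCm38, minus strand), was at 42.2, 37.2 and 46.4 FPKM in WT and at 34.0, 35.7 and 37.1 FPKM in Hemgn-/-. The groups did not overlap, but the highest Hemgn-/- library and the lowest WT library nearly met. Its log2 fold change was -0.22 (SE 0.10, 95% interval -0.44 to -0.01, adjusted p = 0.22 in limma). Psmd5 was at 13.5, 12.3 and 15.6 FPKM in WT and at 14.1, 13.1 and 14.7 FPKM in Hemgn-/-, inside the WT range, with a log2 fold change of 0.02 and an interval of -0.23 to 0.27. Psmd9, the third chaperone, had an estimate of -0.07.

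Neither of the interferon-inducible PA28 genes was called. Psme1 (chr14:55578123-55581529 in GRCm38, plus strand) was at 14.6, 10.5 and 12.7 FPKM in WT and at 11.9, 15.4 and 17.7 FPKM in Hemgn-/- libraries. Hemgn-/- replicates 2 and 3 were above all WT libraries, and replicate 1 was within their range. Its log2 fold change was 0.23 (SE 0.16, 95% interval -0.14 to 0.60, adjusted p = 0.46 in limma), and no alternative called it. Psme2 (chr14:55587441-55591113, minus strand) was at 34.8, 36.5 and 37.9 FPKM in WT and at 36.2, 40.0 and 37.3 FPKM in Hemgn-/- libraries. The groups overlapped, and the log2 fold change of 0.05 (SE 0.08, interval -0.12 to 0.23, adjusted p = 0.73 in limma) was -0.05 under median-ratio scaling and -0.03 under quantile normalization. Tap1, which carries peptides into the endoplasmic reticulum, was at 35.4 to 36.6 FPKM in WT and 53.6 to 55.4 FPKM in Hemgn-/-. Its log2 fold change was 0.59 (interval 0.43 to 0.74, adjusted p = 0.0023 in limma), whereas Tap2, Tapbp and B2m, given below, were not called. The whole interval of Tap1 lay above that of Psme2, while it overlapped that of Psme1. A test of these differences between genes was not run.

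Of the 7 interferon comparators (Irf1, Nlrc5, Gbp2, Tap1, Tap2, Tapbp and B2m), 4 were called higher and 0 lower, against 4.37% and 2.09% of all genes tested. Their median log2 fold change was 0.48. Gbp2, an interferon-induced GTPase, rose by 1.10 and the transcription factor Irf1 by 0.75 on the log2 scale, and both stayed called in all 15 alternatives, as did Tap1. Nlrc5, the activator of MHC class I genes, rose by 0.48 and was called in 5 of the 15. The comparators not called had log2 fold changes of 0.14 (Tap2), 0.15 (Tapbp) and -0.02 (B2m). Their adjusted p in limma was 0.32, 0.19 and 0.92. The list was chosen with earlier results of these libraries known and is not independent evidence of its direction. Among the immunoproteasome subunits, Psmb9 was at 21.4, 21.4 and 21.6 FPKM in WT and at 24.1, 32.9 and 29.7 FPKM in Hemgn-/- libraries, without overlap, with a log2 fold change of 0.40 and an adjusted p of 0.080 in limma. Psmb8 was near 1 FPKM with a log2 fold change of 0.34 (adjusted p = 0.35 in limma), and Psmb10 had 0.12 (adjusted p = 0.62 in limma).

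**Figure D4:**
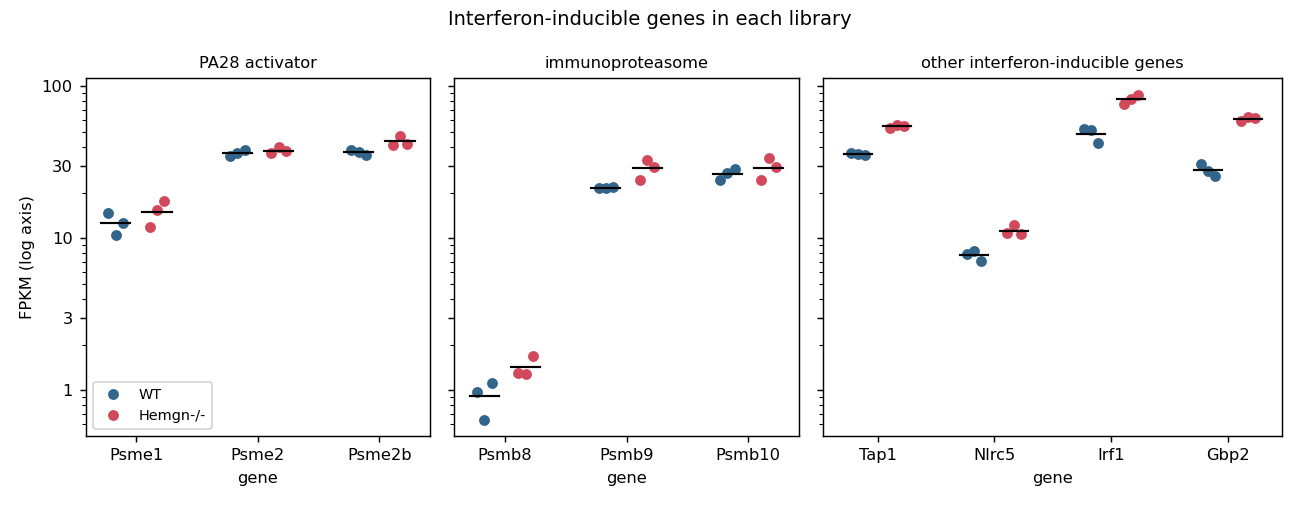
FPKM on a log axis in each library (blue, WT; red, Hemgn-/-; bars, group means) of the PA28 genes with the copy Psme2b, the 3 immunoproteasome subunits, and the 4 of 7 interferon comparators that were called. The Hemgn-/- and WT points overlap for Psme1, Psme2 and Psmb10 and are separate for Tap1, Nlrc5, Irf1 and Gbp2.

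Values of Psme2 could not be separated cleanly from those of its copy Psme2b, a protein-coding gene at chr11:48945354-48946190 (GRCm38, minus strand). The coding sequences of both genes are 717 bases long and 99.3% identical, with 5 mismatches, which are C312T, A369G, C489T, C519T and C543T (base of Psme2, position counted from the start codon, base of Psme2b). The 150 coding bases from position 442 to 591 are shown because they hold 3 of the 5 mismatches, in capitals, and a fragment of the coding sequence that covers none of the 5 positions fits both genes alike.
Psme2: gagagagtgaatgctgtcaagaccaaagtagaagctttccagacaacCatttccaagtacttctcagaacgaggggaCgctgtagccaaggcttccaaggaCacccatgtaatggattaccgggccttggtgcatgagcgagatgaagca
Psme2b: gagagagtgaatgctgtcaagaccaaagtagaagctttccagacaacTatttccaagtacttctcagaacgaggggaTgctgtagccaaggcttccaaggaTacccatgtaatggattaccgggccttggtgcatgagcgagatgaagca
Psme2b was at 38.4, 36.9 and 35.3 FPKM in WT and at 41.1, 47.2 and 42.0 FPKM in Hemgn-/- libraries. All Hemgn-/- libraries were above all WT libraries, with a log2 fold change of 0.23 (SE 0.08, 95% interval 0.04 to 0.42, adjusted p = 0.15 in limma). When the fragments of both genes were summed, the level was 93.5, 95.2 and 96.4 in WT and 98.3, 110 and 101 in Hemgn-/- libraries, in CPM (fragments scaled to library size). The sum also separated the groups, by a narrow gap, and its log2 fold change was 0.11 (interval -0.05 to 0.28, adjusted p = 0.42 in limma). Psme2b also shares 4.9% of its exon bases with 9930111J21Rik1, a protein-coding gene on the same strand at a mean of 11.4 FPKM. Values of Psme2b are uncertain to that extent.

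Of the other activators, Psme3 encodes the nuclear PA28-gamma, and Psme4 encodes PA200. Psme3 was at 6.93, 14.4 and 6.75 FPKM in WT and at 8.54, 5.62 and 6.41 FPKM in Hemgn-/-. WT replicate 2 was far above the other 5 libraries, and the log2 fold change of -0.34 (interval -0.94 to 0.26) was -0.01 without that library. Psme4 had an estimate of -0.13 with an interval of -0.50 to 0.24. Psma8 had the largest estimate of all members, but from few fragments, about 41 to 59 in WT and 78 to 140 in Hemgn-/- libraries. It was at 0.95, 0.92 and 0.60 FPKM in WT and at 1.33, 2.14 and 1.08 FPKM in Hemgn-/-, without overlap, with a log2 fold change of 0.45 and an interval of -0.05 to 0.95 (adjusted p = 0.28 in limma). Psmc3ip had 35 to 65 fragments per library and an estimate of -0.06, and 21.2% of its exon bases lie opposite exons of Mlx, a gene at 78.3 FPKM, so without a stated strand setting its reads are uncertain. Including Psma8, Psme2b, Psmb1, Psmc1, Psmd2 and Psmd10, the groups did not overlap for 6 of the 41 members, against 27.4% of all genes tested.

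Several members have processed copies elsewhere in the genome. For 18 of the 41, at least 1 other annotated gene matched the coding sequence at 90% identity or more over 150 bases. Not every match is a copy elsewhere, since that of Psmd1 was Gm21972, a protein-coding gene that overlaps its exons on the same strand. Besides the pair Psme2 and Psme2b, copies that carried signal included Gm13835, identical to Psma3 over 662 bases and at 1.65 to 2.79 FPKM in WT, where Psma3 was at 8.34 to 10.6 FPKM, and Gm8394, 98.9% identical to Psma5 and at 6.59 to 8.87 FPKM in WT, where Psma5 was at 25.3 to 29.3 FPKM. A stretch of 155 bases of the catalytic gene Psmb7 was also identical to Nek6, which overlaps it on the other strand and was at 2.97 to 4.22 FPKM. How the counting divided fragments between such copies is not given in the sources used here, so Psma3, Psma5 and Psmb7 are uncertain to that extent.

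The promoters of the members were searched for motifs known from proteasome and interferon genes, on both strands of the 300 bases from 250 before to 50 after the start (RefSeq, GRCm38.p6). Members were counted once per gene, whereas the percentages count single promoters, so the counts and percentages given here are not like for like. Promoters of 34 of the 41 members entered the search. The core of the antioxidant response element, TGANNNNGC, the site of the Nfe2l1 factor that adjusts proteasome genes to demand, was present for 19 of these, against 41.3% of all 32851 promoters. The NF-Y box CCAAT was present for 13, against 37.4%, and the ETS motif CCGGAAG for 13, against 8.86%. The core of the interferon-stimulated response element, which is GAAA, any 2 bases and GAAA again, was present for 4 members, Psme1, Psmb3, Psmd4 and Psmd9, against 3.44% of all promoters, and the gamma-activated site TTCNNNGAA for 1, Psmd2, against 8.30%. The stretches from 120 bases before to 30 after the start are shown for Psme1 and Psmd4 and for the called comparator Gbp2, with the match to this element, which in each lies on the opposite strand, in capitals.
Psme1 (chr14:55578374-55578523, plus strand): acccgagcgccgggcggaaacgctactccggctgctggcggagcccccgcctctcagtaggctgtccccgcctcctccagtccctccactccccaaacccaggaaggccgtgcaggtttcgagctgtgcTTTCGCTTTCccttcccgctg
Psmd4 (chr3:95042585-95042734, minus strand): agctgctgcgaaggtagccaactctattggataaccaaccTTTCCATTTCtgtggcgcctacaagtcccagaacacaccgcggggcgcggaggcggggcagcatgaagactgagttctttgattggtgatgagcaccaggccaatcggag
Gbp2 (chr3:142620543-142620692, plus strand): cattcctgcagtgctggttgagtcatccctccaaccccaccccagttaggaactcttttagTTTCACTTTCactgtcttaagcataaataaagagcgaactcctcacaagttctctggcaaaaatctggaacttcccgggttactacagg
The match begins 10 bases into the transcript in Psme1, 80 bases before the start in Psmd4 and 59 bases before it in Gbp2. Of these 3 genes with the motif, Gbp2 was called, Psme1 was not, and Psmd4 had a log2 fold change of 0.01 with an interval of -0.17 to 0.19. A match is a description of the letters, not evidence of binding.

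Genes that act around the proteasome were summarised from lists of 44 genes, of which 43 were in the table and 41 passed the filter. None was called at an adjusted p under 0.05 in limma, against 6.46% of all genes tested. An unadjusted p under 0.05 was found for 7 of the 41, against 21.4% of all genes tested. Among the 5 chaperones of core assembly, 3 had an estimate above 0 and 2 below. Pomp, the core maturation protein, had the lowest estimate of them and was at 12.9 to 13.3 FPKM in WT and 10.6 to 11.8 FPKM in Hemgn-/-, with a log2 fold change of -0.23 (adjusted p = 0.19 in limma). The 11 proteasome-bound proteins and inhibitors split into 5 above and 6 below 0, the 9 shuttle and extraction factors into 4 and 5, and the 6 ubiquitin and E1 genes into 4 and 2. Of the 10 regulators of proteasome genes tested, 9 had an estimate above 0 and 4 an unadjusted p under 0.05, with a median log2 fold change of 0.20, against 63.0% above 0, 21.4% at such a p and a median of 0.09 over all genes tested. Nfe2l1, named after its values were seen, was at 14.2, 12.8 and 14.7 FPKM in WT and at 16.9, 18.8 and 23.3 FPKM in Hemgn-/-. Each Hemgn-/- library was above each WT library, with a log2 fold change of 0.46 (interval 0.17 to 0.75, adjusted p = 0.070 in limma), and 3 of 15 alternatives called it.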

How the data were processed

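The authors deposited FPKM values per gene with 1 column per library. Per the submitters' processing notes, GRCm38 and Bowtie2 2.2.3, HISAT2 2.1.0, TopHat2 and HTSeq 0.6.0 were used, with no role given. The annotation and strand setting are not given in the sources used here. Every value column was matched to a library, with 0 left over. Of 24965 genes, 24921 matched GENCODE M21, which gave symbols and exon lengths. Low FPKM values rise in whole steps, which gave each library's depth: of 13480 genes with at most 100 fragments, 95.7% came out whole within 0.05 fragments in all 6 libraries. The members were whole in 36 of 41 cases, and the fragments of Psma7, Psma8, Psmb1, Psmb5 and Psmc6 are approximate. Fragments of amplified cDNA are not independent molecules.

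The comparison used limma 3.58.1 (R 4.3.3, eBayes with a trend) on log2(FPKM + 1) of each gene that exceeded 1 FPKM somewhere, which understates changes of low genes, over all 6 libraries without covariates. P-values are two-sided, adjusted over all genes tested. The study names no tool for its own comparison. On simulated data for this comparison with 200 genes changed 2-fold, 156 were found, and 19 of 12406 unchanged genes were called. The simulation gave all genes the same set dispersion, not estimated from these libraries, and held no smaller changes. It therefore does not give the power for changes of the size seen in the members. Copies were sought with blastn 2.17.0, and Python 3.11.15 made the rest.

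The alternatives were a pseudocount of 0.1, no filter, a mean FPKM of at least 1, median-ratio scaling, an equal FPKM total, quantile normalization, no trend, the replicate number as a block, voom on recovered fragments, which called 1065 genes, and leaving out each library. Summing Psme2 and Psme2b was added after seeing the data. Members and lists were chosen with earlier results of these data known. Values per library are given for Psme1, Psme2, the catalytic subunits, Psmd14, any called member, and the highest and lowest estimate of each subcomplex, and other members by range and count. Other genes are named where the text says why. A few genes of the planned lists are left out of the text and of the lists, but not of the fit.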

Additional observations from a re-analysis of the deposited data

How the results depend on the processing

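The count of members called was 0 in the main comparison and in 14 of 15 alternatives, and 2 under an equal FPKM total, where Psmd2 and Psme2b were called. The count over all genes was 887, and 1287 under an equal FPKM total, 1065 with voom, 926 at a mean FPKM of at least 1, 466 with no filter, 390 without a trend, 636 with the replicate number as a block, and 373 to 688 when a library was left out, of which 470 and 494 belong to the omission of WT replicates 1 and 3, and 525 and 373 to that of Hemgn-/- replicates 2 and 3. Same-numbered libraries did not deviate together (correlations of -0.04, -0.0094 and 0.01, with 1 of 6 libraries correlating best with its own number). These values gave no sign of pairing by number, but so few correlations cannot exclude it. The block called 0 members. Scaling moved the medians. The core median of -0.10 was -0.19 under median-ratio scaling and -0.011 under an equal FPKM total, the base median of 0.01 was -0.090 and 0.10, and the lid median of 0.04 was -0.062 and 0.13. Quantile normalization gave -0.050 for the base and -0.029 for the lid. Leaving out libraries gave -0.15 to -0.016 for the core, 0.00054 to 0.064 for the base and -0.0012 to 0.09 for the lid.

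Estimates near 0 changed sign. Under median-ratio scaling and quantile normalization, Psme2 was -0.046 and -0.027, Psma4 -0.083 and -0.053, Psmb4 -0.018 and -0.0063, Psmb5 -0.036 and -0.019, Psmb6 -0.061 and -0.046, and Psmd5 -0.076 and -0.058. Under an equal FPKM total, Psmd14 was 0.075 and Psmd6 0.043. Leaving out libraries gave -0.061 to 0.086 for Psma4, -0.086 to 0.19 for Psmb4, -0.10 to 0.29 for Psmb5, -0.040 to 0.12 for Psmb6, -0.28 to 0.0060 for Psmb7, -0.034 to 0.020 for Psmd14, -0.053 to 0.11 for Psmd5 and -0.10 to 0.052 for Psmd6. The cause was not tested. With 3 libraries a group, the intervals of the core, base and lid genes reached down to -0.55 (Psma6) and up to 0.49 (Psmb5), and the interval of Psmd14 was -0.17 to 0.14.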

Other observations

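WT replicate 2 stood apart at a small number of genes, including genes around the proteasome. Of 7305 genes above 5 FPKM in at least 1 library, 55 were more than 2-fold higher there than in any other library, against 3 to 11 genes in each of the other 5 libraries. The shuttle factor Ubqln1 was among them, at 23.7 FPKM against 4.47 to 8.48 FPKM elsewhere, as was Zfand5, which binds the proteasome, at 19.8 FPKM against 5.90 to 8.07 FPKM. Psme3, at 14.4 FPKM against 5.62 to 8.54 FPKM, had the same library as its highest without reaching that limit. No explanation of these values was tested.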
